A study of Mus musculus with 10 samples.

Results

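The Dlk1-Dio3 domain on mouse chromosome 12 holds a large group of imprinted microRNAs (miRNAs). The miRNAs examined were both arms of 41 hairpins named from this domain, 82 mature miRNAs in all, chosen by name and not by any measured value. With Meg3, Rian and Mirg, the noncoding transcripts of the same stretch of chromosome, they made 85 members of the 26714 features of the study, which are 1978 mature miRNAs and 24736 genes. The eyeballs measured came from females of the Kunming stock, which is outbred, with a labelled age of 4 weeks. The 2 control samples came from mice in natural light, and the 3 treated samples from mice under an 18 W blue lamp (PL-L, Philips) within a dark container, so that the groups differ in the container as well as in the colour of the light. All sample titles carry the mark 14d, which the labels do not explain further. No genotype or transgene is named for either group. The same 5 letters, natural A and B and blue A, B and C, name the libraries of both assays. The labels do not say whether each sample is 1 animal, so a p-value here rests on sample-to-sample spread that may in part be technical.

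In an imprinted domain, only the copy inherited from a given parent is transcribed. Here the maternal chromosome gives the noncoding RNAs Meg3, Rian and Mirg, which are transcribed in the same direction and from whose introns and flanks the miRNA hairpins are cut, while the paternal chromosome gives the proteins Dlk1, Rtl1 and Dio3. Drosha and Dicer release from each hairpin a 5p and a 3p arm, and the arm loaded into Argonaute pairs with messenger RNAs mainly through its seed, taken here as bases 2 to 8. The miRNAs of the domain are best known from brain, where the group from miR-379 to miR-410 is induced by neuronal activity through Mef2 factors, and from placenta.

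The hairpins fall into 3 stretches. In the GRCm38 build, Meg3 lies at chr12:109540996-109571729, Rian at chr12:109603945-109661716 and Mirg at chr12:109734981-109749458. The first 10 hairpins, from miR-673 to miR-136, lie between Meg3 and Rian in and around Rtl1 (chr12:109564900-109604418), a gene transcribed on the opposite strand. The next 2 hairpins, miR-341 and miR-370, lie within Rian. The other 29, from miR-379 to miR-410, follow downstream, and 7 of these, with 14 arms, lie within the span of Mirg. RefSeq (GRCm38.p6) gave a mature sequence for 78 of the 82 arms. miR-376c-3p, miR-487b-3p, miR-539-3p and miR-485-5p were matched by name only.

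The 6 most abundant members are shown first because they carry most of the signal of the cluster. Each is written 5′ to 3′ with its seed in capitals.
miR-127-3p: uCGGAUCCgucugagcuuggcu
miR-381-3p: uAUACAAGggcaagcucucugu
miR-434-5p: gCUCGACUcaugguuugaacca
miR-379-5p: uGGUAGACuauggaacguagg
miR-434-3p: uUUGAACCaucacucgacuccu
miR-411-5p: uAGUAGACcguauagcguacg
No seed is shared among these 6. The most abundant of them, miR-127-3p, is cut from a hairpin at chr12:109592846-109592915 on the plus strand, within the span of Rtl1, whose messenger RNA it pairs with perfectly and cleaves. The hairpin is shown with its 5p arm and then its 3p arm in capitals.
Mir127: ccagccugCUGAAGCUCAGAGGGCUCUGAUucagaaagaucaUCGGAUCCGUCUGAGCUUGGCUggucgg

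The next set is shown because these 7 members had an unadjusted p under 0.05 between blue and natural light. None of them passed after adjustment.
miR-543-3p: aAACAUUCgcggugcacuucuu
miR-494-3p: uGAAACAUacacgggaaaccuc
miR-409-3p: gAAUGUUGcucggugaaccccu
miR-485-3p: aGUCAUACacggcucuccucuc
miR-433-3p: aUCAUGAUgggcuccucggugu
miR-666-5p: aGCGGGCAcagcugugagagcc
miR-369-5p: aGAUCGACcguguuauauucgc
These 7 have 7 different seeds.

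Among the 78 arms with a sequence, likeness was limited to a few pairs, shown because reads of near-identical miRNAs can be assigned wrongly. The 4 arms without one were not compared, so further pairs or shared seeds that involve them would be missed. Among the arms compared, only 3 seeds were held by 2 members each. AUGUAAC was held by miR-379-3p and miR-411-3p, UGGAUAU by miR-376b-5p and miR-376c-5p, and GGUUGUC by miR-494-5p and miR-410-5p.
miR-379-3p: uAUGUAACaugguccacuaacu
miR-411-3p: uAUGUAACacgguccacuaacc
miR-376b-5p: gUGGAUAUuccuucuaugguua
miR-376c-5p: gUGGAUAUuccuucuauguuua
miR-300-3p: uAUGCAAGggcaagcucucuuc
miR-376b-5p and miR-376c-5p are 1 edit apart, miR-379-3p and miR-411-3p are 2 apart, and miR-300-3p is 3 from miR-381-3p above. In natural A the table gave miR-376b-5p 1073 counts and miR-376c-5p 22. Outside the members, miR-329-3p shares its seed ACACACC with miR-362-3p, and miR-410-3p shares AUAUAAC with miR-344d-3p. In base composition the tested members with a sequence were like other tested miRNAs. The first base was U in 26 of 67 members (38.8%) and in 185 of 471 others (39.3%), and the median GC content was 47.6% against 47.8%. The letters GUUG, read on the mature strand only and picked after the sequences were seen, stood within the first 9 bases of 8 of 28 5p arms from miR-379 to miR-410 (28.6%). They stood there in 0 of 10 5p arms on the Rtl1 side, in 0 of 2 within Rian, and in 14 of 657 other mouse 5p arms of RefSeq (2.13%). The GGUUGUC seed contains these letters.

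The miRNA libraries held 8355432 and 9442889 counts in natural light and 10875487, 10444317 and 8860154 under blue light. The mRNA libraries held 87071487 to 107660103 estimated counts. Between libraries Spearman's rho was 0.979 to 0.990 for miRNAs and 0.974 to 0.991 for mRNAs, and no library stood apart on this measure. Eye markers were present in every library: the 16 lens genes summed to 43329 to 46666 CPM, where CPM are counts scaled to a common library size with TMM, the trimmed-mean correction of edgeR. RNA levels of the listed rod and reactive glia genes differed between the groups. Of 20 rod photoreceptor genes 17 passed as lower under blue light, beside 1.55% of all genes, with a median log2 fold change of -1.57. Of 16 reactive glia genes 14 passed as higher, beside 0.664% of all genes. These lists were chosen with earlier results of these data known, so the counts describe the listed genes only. Of the 6 arms of the photoreceptor miRNAs miR-183, miR-96 and miR-182, 2 passed as lower, beside 0.312% of all tested miRNAs. Together the 6 summed to 214819 and 200006 CPM in natural light against 81289, 119673 and 115861 CPM under blue light. In whole eyeballs, fewer cells of a type and less RNA per cell cannot be told apart.

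The cluster as a whole was a small share of eyeball miRNA. Its 82 arms made up 1.81% and 1.42% of all miRNA counts in the natural libraries and 1.68%, 1.65% and 1.66% in the blue libraries, or 1.62% ± 0.271 (SD, n = 2) against 1.66% ± 0.0169 (SD, n = 3). The 3 blue values lay between the 2 natural values. On the TMM-scaled level the sum was 19307 and 15171 CPM in natural light and 16199, 15981 and 15552 CPM under blue light, a log2 ratio of the means of -0.12, while on library totals alone the ratio turned to 0.04. The spread of the summed level between libraries of a group was 0.14 on the log2 scale, larger than either ratio. Without natural A the ratio was 0.07, and without natural B it was -0.27.

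miR-127-3p alone supplied 38.7% and 39.7% of the cluster in the natural libraries and 39.8%, 42.5% and 41.1% in the blue ones. The 10 most abundant arms supplied 79.1% to 80.3% in each library. A mean of at least 100 CPM was reached by 23 members, of at least 10 CPM by 49, and of at least 1000 CPM by 2. Among all 1978 miRNAs the member with the highest mean, miR-127-3p, ranked 31st and the next, miR-381-3p, ranked 68th.

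**Figure D1:**
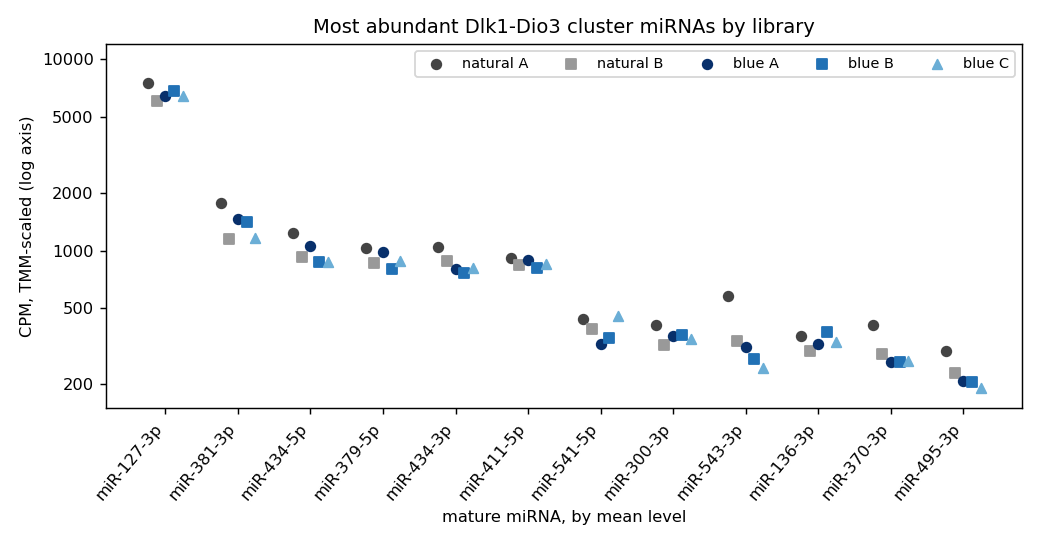
Level of the 12 most abundant cluster miRNAs in each library, in TMM-scaled CPM on a log axis, with grey symbols for the 2 natural and blue symbols for the 3 blue libraries. miR-127-3p stands above all others at 6017 to 7473 CPM, and for most members the natural A symbol is the highest of the 5.

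Along the chromosome, the signal was split between the 2 larger stretches. The 10 hairpins on the Rtl1 side summed to 10858 and 8775 CPM in natural light and to 9277, 9465 and 9104 CPM under blue light. The 29 hairpins from miR-379 to miR-410 summed to 7885 and 6008 CPM in natural light and to 6527, 6135 and 6078 CPM under blue light. In both stretches the natural values bracketed the blue ones. The 2 hairpins within Rian summed to 563 and 388 CPM in natural light and to 395, 380 and 369 CPM under blue light, which again overlapped. The log2 ratios of the means were -0.081, -0.15 and -0.32 in that order.

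**Figure D2:**
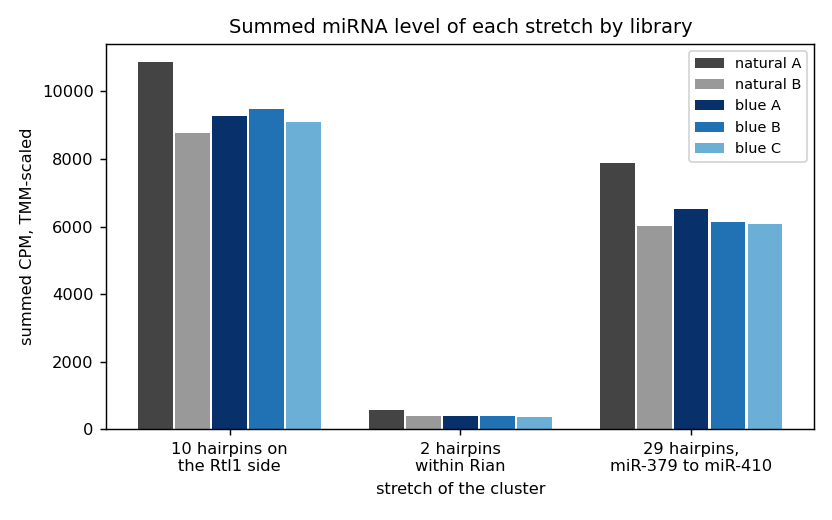
Summed TMM-scaled CPM of the hairpins in each stretch, 1 bar per library. In all 3 stretches the natural A bar is the tallest, and natural B lies below the 3 blue bars except within Rian, where it lies among them.

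Of the 82 arms, 70 had enough counts to be tested. The other 12 never exceeded 7 counts in a library. Among those, miR-665-5p and miR-758-5p had 0 counts in all 5 libraries, which allows a level of up to 0.276 to 0.359 CPM depending on the library (3 counts, counting error only). With edgeR (quasi-likelihood, p adjusted by Benjamini-Hochberg over the 641 miRNAs tested), 0 of the 70 members differed between blue and natural light at an adjusted p under 0.05. Over all tested miRNAs 4 passed, or 0.624%, with 0.312% higher and 0.312% lower. DESeq2 and limma-voom also called 0 members. At an unadjusted p under 0.05 in edgeR stood 7 of 70 members, 6 lower and 1 higher, beside 11.9% of all tested miRNAs (5.3% higher and 6.55% lower). DESeq2 gave 9 members and limma-voom 6 at that level, with no share of all miRNAs from the same tool to set beside them. The 2 natural and 3 blue values did not overlap for 14 of 70 members, 13 lower and 1 higher under blue light, beside 28.4% of all tested miRNAs (14.8% higher and 13.6% lower).

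The members lay slightly to the low side under TMM scaling. Their median log2 fold change was -0.084, with 45 negative and 25 positive, against a median of 0.014 for all 641 miRNAs, of which 315 were negative. On library totals alone the members' median turned to 0.073 with 27 of 70 negative, but the median of all miRNAs moved to 0.17, so that the distance between the medians was -0.097 with TMM and -0.093 without. Without natural A the members' median was 0.017 with 34 negative, and that of all miRNAs was 0.066. Without natural B the members' median was -0.18 with 51 negative, and that of all miRNAs was -0.017. Limits on the size of a change came from 95% limma-voom intervals, which lay within 1 log2 unit of 0 for 48 of the 70 members. Of the 23 members with a mean of at least 100 CPM, 22 had such an interval, so a change of 2-fold or more lay outside the interval for those.

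**Figure D3:**
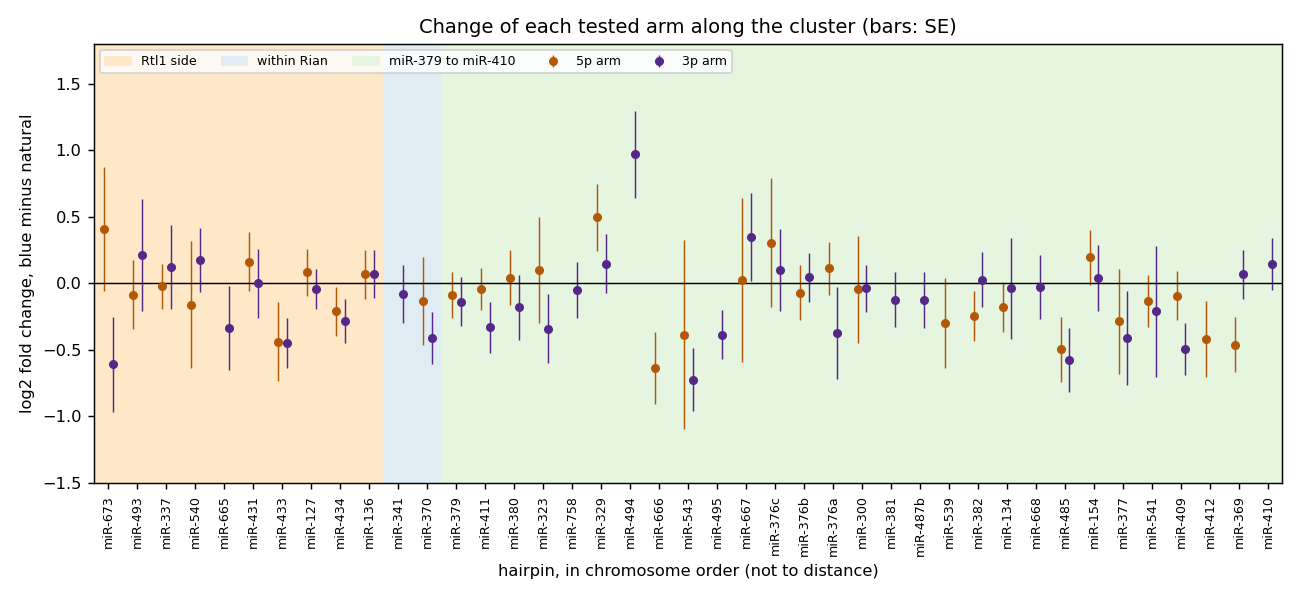
Log2 fold change (blue minus natural, edgeR) of the 70 tested arms, with hairpins in chromosome order and bars of 1 SE. Most points lie within 0.5 of 0 in all 3 stretches, and the outermost are miR-494-3p at 0.97 and miR-543-3p at -0.72.

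Among the Rtl1-side miRNAs, miR-127-3p was the member measured most precisely. Its level was 7473 and 6017 CPM in natural light and 6453, 6799 and 6389 CPM under blue light. All 3 blue values lay between the natural ones, with a log2 fold change of -0.043 (SE 0.15, 95% interval -0.38 to 0.31, edgeR adjusted p = 0.914). Its passenger arm miR-127-5p, at 124 to 148 CPM, gave 0.082 (edgeR adjusted p = 0.901). miR-434, a hairpin that also lies opposite Rtl1, gave its arms in nearly equal amounts. miR-434-5p was at 1239 and 926 CPM in natural light and at 1054, 876 and 877 CPM under blue light. miR-434-3p was at 1048 and 886 CPM in natural light and at 800, 767 and 816 CPM under blue light. The groups overlapped for the 5p arm and did not for the 3p arm, whose log2 fold change was -0.28 (SE 0.16, edgeR adjusted p = 0.544). miR-136-3p was at 357 and 299 CPM in natural light and at 324, 378 and 332 CPM under blue light, with overlapping groups (log2 fold change 0.070, edgeR adjusted p = 0.901).

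The only Rtl1-side member with an unadjusted p under 0.05 was miR-433-3p. It was at 202 and 151 CPM in natural light and at 125, 135 and 129 CPM under blue light. Both natural values were above the 3 blue ones, with a log2 fold change of -0.45 (SE 0.19, edgeR adjusted p = 0.387). The 5p arm of the same hairpin, near 4 CPM, gave -0.44 (edgeR adjusted p = 0.612). The low-level members of this stretch with the smallest p on the high side, miR-673-5p at 0.903 to 1.67 CPM and miR-431-5p at 20.7 to 30.6 CPM, overlapped between the groups. Within Rian, miR-370-3p was at 411 and 287 CPM in natural light and at 262, 262 and 264 CPM under blue light. The 3 blue values were almost equal and below both natural ones, with a log2 fold change of -0.41 (SE 0.19, edgeR adjusted p = 0.469).

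From miR-379 to miR-410, the groups overlapped for miR-381-3p, miR-300-3p, miR-379-5p, miR-411-5p and miR-541-5p. miR-381-3p, the most abundant of this stretch, was at 1779 and 1155 CPM in natural light and at 1464, 1416 and 1167 CPM under blue light. Its close relative in sequence, miR-300-3p, was at 409 and 322 CPM in natural light and at 360, 361 and 347 CPM under blue light. In both, the natural values bracketed the blue ones. miR-379-5p was at 1031 and 857 CPM in natural light and at 979, 801 and 887 CPM under blue light, and miR-411-5p was at 912 and 841 CPM against 894, 810 and 848 CPM. These hairpins lie at the head of the stretch, and the log2 fold changes of miR-379-5p and miR-411-5p were -0.086 and -0.043, with edgeR adjusted p of 0.901 and 0.917. miR-541-5p was at 440 and 389 CPM in natural light and at 326, 351 and 456 CPM under blue light, also overlapping.

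The lowest p of all members belonged to miR-543-3p. It was at 578 and 337 CPM in natural light and at 313, 273 and 245 CPM under blue light. All 3 blue values were below both natural ones, but natural A was far above the other 4. The log2 fold change was -0.72 (SE 0.24, 95% interval -1.20 to -0.16, edgeR adjusted p = 0.276). Without natural A it was -0.28, with an edgeR adjusted p of 0.890, and over all 13 alternatives the adjusted p ran from 0.0506 to 0.890. miR-495-3p, which is 4 edits from miR-543-3p and lies next to it, was at 301 and 229 CPM in natural light and at 209, 207 and 192 CPM under blue light. Its groups did not overlap either (log2 fold change -0.38, edgeR adjusted p = 0.471).

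The one member that was higher in every blue than in every natural library was miR-494-3p. It was at 8.82 and 9.70 CPM in natural light and at 14.0, 13.7 and 27.0 CPM under blue light. Blue C stood well above the other blue libraries. The log2 fold change was 0.97 (SE 0.32, 95% interval 0.14 to 1.63, edgeR adjusted p = 0.276), and it was 0.58 without blue C. It passed in 1 of 13 alternatives, that with no filter on low counts, where the edgeR adjusted p was 0.00581. The next smallest p on the high side was that of miR-329-5p, at 49.9 and 37.0 CPM in natural light and 46.1, 60.5 and 77.2 CPM under blue light, with overlapping groups (log2 fold change 0.50, edgeR adjusted p = 0.471). miR-154-5p and miR-667-3p, the other members of this stretch with the smallest p on the high side, had log2 fold changes of 0.20 and 0.35 and overlapped too.

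Other members of this stretch with an unadjusted p under 0.05 were miR-409-3p, miR-485-3p and miR-666-5p, beside miR-369-5p, whose values stand with those of its hairpin. miR-409-3p was at 198 and 154 CPM in natural light and at 144, 113 and 118 CPM under blue light, without overlap (log2 fold change -0.49, edgeR adjusted p = 0.369). miR-485-3p was at 146 and 87.4 CPM in natural light and at 89.5, 77.3 and 67.6 CPM under blue light. Here blue A exceeded natural B, and the log2 fold change was -0.58 with all libraries and -0.16 without natural A. The other arm, miR-485-5p, was at 96.8 and 64.9 CPM in natural light and at 72.0, 47.3 and 52.6 CPM under blue light, with the same overlap. miR-666-5p was at 21.2 and 14.4 CPM in natural light and at 14.8, 9.02 and 10.5 CPM under blue light, again overlapping through blue A. Without natural A the log2 fold change was -0.30 for miR-409-3p, and for miR-666-5p it was -0.33 against -0.64 with all libraries.

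The balance between the arms of a hairpin does not depend on how libraries are scaled, since both arms come from 1 library. Of the 35 hairpins with a mean of at least 100 counts over both arms, 14 gave mainly the 5p arm and 21 mainly the 3p arm, and 20 gave over 90% of 1 arm. The highest 5p share was that of miR-541, at 99.6% ± 0.101 (SD, n = 2) in natural and 99.6% ± 0.204 (SD, n = 3) in blue light. At the other end were miR-381, with a mean 5p share of 0.0187%, and miR-758, whose 5p arm had no counts. miR-434 gave both arms in near-equal shares, with 5p shares of 54.2% and 51.1% in natural light and 56.8%, 53.3% and 51.8% under blue light. The groups did not overlap for 5 of the 35 hairpins, beside 27.5% of the 240 hairpins of the whole table that met the same count minimum. In 4 the 5p share was higher under blue light (miR-127, miR-370, miR-411 and miR-329), beside 17.1% of the 240, and in 1 it was lower (miR-369), beside 10.4%.

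The miR-369 hairpin, at chr12:109743418-109743496 on the plus strand within Mirg, is shown because its arms went separate ways. Both arms are in capitals, the 5p arm first.
Mir369: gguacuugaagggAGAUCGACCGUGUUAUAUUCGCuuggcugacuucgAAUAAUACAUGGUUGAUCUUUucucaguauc
The 5p arm was at 170 and 123 CPM in natural light and at 122, 97.2 and 101 CPM under blue light. The 3p arm was at 219 and 201 CPM in natural light and at 203, 249 and 208 CPM under blue light. The 5p arm was lower in every blue library, by little in blue A, while the 3p arm overlapped. The 5p share was 43.8% and 38.1% in natural light and 37.6%, 28.1% and 32.6% under blue light, or 40.9% ± 4.06 (SD, n = 2) against 32.8% ± 4.73 (SD, n = 3). The closest natural and blue shares thus lay well within the SD of either group. For miR-329 the 5p share was 55.3% and 54.9% in natural light and 57.4%, 62.4% and 62.3% under blue light. An exact permutation test of 2 against 3 libraries cannot give a 2-sided p below 0.2, so these shares are described without a test. Over the 29 hairpins with both arms tested, the arms had the same sign of log2 fold change in 18, and Pearson's r between arms was 0.30, a description over arms measured in the same 5 libraries.

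**Figure D4:**
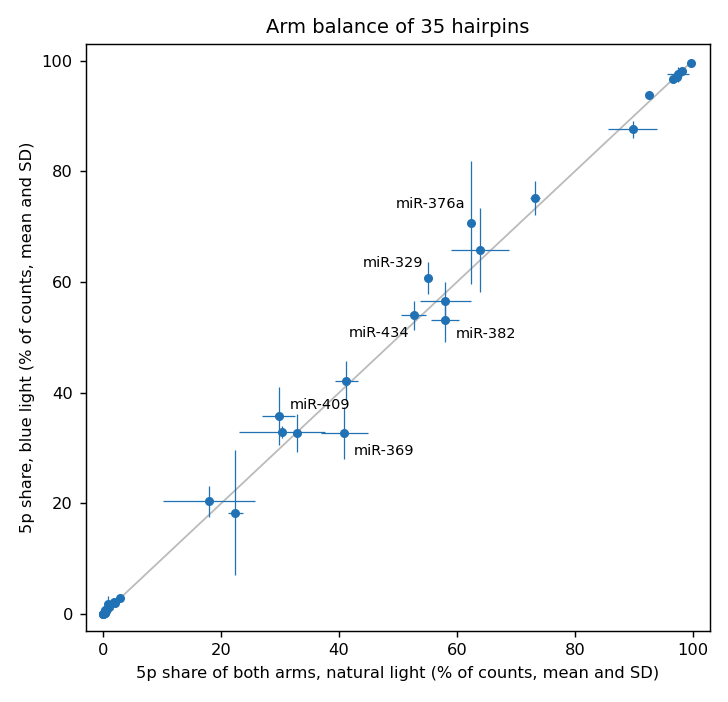
Share of the 5p arm among the counts of both arms for the 35 hairpins with enough counts, as the mean of the 2 natural libraries on the horizontal and of the 3 blue libraries on the vertical axis, with bars of 1 SD in percent. Points follow the diagonal from near 0% to 99.6%, and miR-369 lies below it at 40.9% and 32.8%.

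Meg3, Rian and Mirg, whose annotated spans hold only part of the cluster, were measured in the mRNA libraries. Of these 3, 0 passed, beside 2.22% of the 18988 genes tested. DESeq2 and limma-voom also called 0 of the 3. Both gave 1 of the 3 an unadjusted p under 0.05, with no share of all genes from the same tool to set beside it. Meg3, the founding transcript of the maternal chromosome, was at 716 and 542 CPM in natural light and at 548, 602 and 644 CPM under blue light. The natural values bracketed the blue ones, and the log2 fold change was -0.072 (SE 0.14, 95% interval -0.39 to 0.27, edgeR adjusted p = 0.858). Rian, which hosts small nucleolar RNAs (snoRNAs) as well as miR-341 and miR-370, was at 102 and 80.8 CPM in natural light and at 66.1, 72.3 and 80.0 CPM under blue light. All 3 blue values lay below both natural ones, though blue C came within 1 CPM of natural B. The log2 fold change of Rian was -0.33 (SE 0.13, 95% interval -0.64 to -0.0093, edgeR adjusted p = 0.302). Its unadjusted p was the only one under 0.05 among the 3, beside 16.3% of all genes (7.03% higher and 9.27% lower). Groups that did not overlap were found for 35.6% of all genes (20.1% lower). The annotated span of Mirg holds 14 of the 82 arms. Mirg was at 4.70 and 2.55 CPM in natural light and at 3.25, 3.31 and 3.66 CPM under blue light, overlapping (log2 fold change -0.092, edgeR adjusted p = 0.920). Without natural A the log2 fold changes of Meg3, Rian and Mirg were 0.17, -0.12 and 0.44.

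Of the 12 protein-coding and antisense genes listed for the domain and its flanks, 1 passed as higher and 0 as lower, beside 0.664% of all genes higher and 1.55% lower. Their median log2 fold change was -0.094. The gene that passed was Begain, which encodes a protein of the postsynaptic density and lies at chr12:109032181-109068242, upstream of Dlk1. It was at 14.6 and 11.9 CPM in natural light and at 23.9, 22.4 and 24.6 CPM under blue light. The blue libraries were close together and all above the natural ones, with a log2 fold change of 0.84 (SE 0.12, edgeR adjusted p = 0.0350). It passed in 6 of 13 alternatives, and the call was lost when any 1 of the 5 libraries was left out. Its log2 fold change in those fits ran from 0.70 to 1.02. Without blue A, B or C the edgeR adjusted p was 0.0785, 0.0721 and 0.143. Fewer genes passed in these fits as well, at 311, 277 and 11 against 421 with all libraries. DESeq2, which called 9.11% of all genes (4.46% higher and 4.65% lower), called Begain as higher and Ppp2r5c and Wdr25 as lower.

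The imprinted coding genes themselves did not pass. Dlk1, a transmembrane ligand related to those of Notch, was at 1.09 and 2.14 CPM in natural light and at 1.34, 1.42 and 3.12 CPM under blue light. Dio3, the deiodinase that inactivates thyroid hormone, was at 3.50 and 5.44 CPM in natural light and at 7.50, 5.31 and 4.82 CPM under blue light. Rtl1, a retrotransposon-derived gene that miR-127 and its neighbours lie opposite to, was at 14.8 and 9.19 CPM in natural light and at 10.8, 9.95 and 13.7 CPM under blue light. In all of these the groups overlapped, with log2 fold changes of 0.28, 0.40 and -0.064 and edgeR adjusted p of 0.843, 0.567 and 0.938. The annotated span of Rtl1 overlaps the end of Meg3 and the start of Rian. Whether the counting used strand is not stated, so reads from these overlaps cannot be told apart. Reads elsewhere in the Rtl1 span may also come from either strand. Outside the imprinted genes, Ppp2r5c, a regulatory subunit of protein phosphatase 2A, and Wdr25 were lower in every blue library with log2 fold changes of -0.36 and -0.66, and neither passed edgeR's test (edgeR adjusted p = 0.0955 and 0.158).

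**Figure D5:**
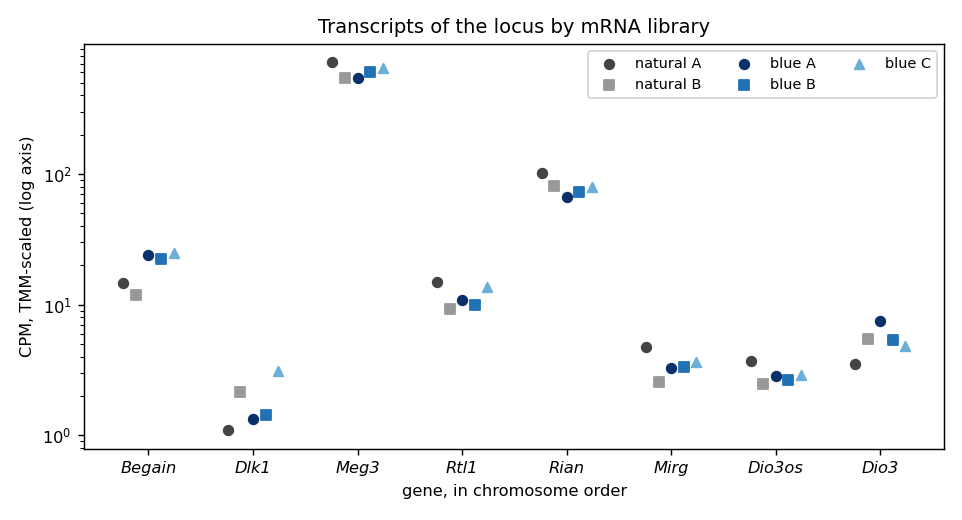
Level of 8 transcripts of the domain in each mRNA library, in TMM-scaled CPM on a log axis, with genes in chromosome order. For Begain the 3 blue symbols stand above both grey ones, for Rian just below them, and for the other 6 genes the groups overlap.

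Of 12 genes listed as regulators of the domain, among them factors of DNA methylation, of chromatin and of miRNA activation, 0 passed edgeR's test. At an unadjusted p under 0.05 stood 5, all lower under blue light, beside 9.27% of all genes lower. The median of the 12 was -0.20. DESeq2 called 4 of the 12 as lower (Dnmt3a, Ctcf, Ezh2 and Mef2c), beside 4.65% of all genes, and limma-voom called 0. The smallest p belonged to Dnmt3a, a de novo DNA methyltransferase, at 238 and 233 CPM in natural light and 175, 180 and 193 CPM under blue light (log2 fold change -0.37, edgeR adjusted p = 0.0741). Ctcf, a chromatin insulator protein, had a log2 fold change of -0.29 (edgeR adjusted p = 0.120), and Ezh2, the methyltransferase of the Polycomb complex PRC2, one of -0.33 (edgeR adjusted p = 0.134). Mef2c, named after its values were seen, is of the factor family that activates the miR-379 to miR-410 group in neurons, and was at 133 and 114 CPM in natural light and at 96.4, 69.1 and 79.8 CPM under blue light (edgeR adjusted p = 0.137). Rod genes were lower in the same libraries, and their part in these values was not tested. Of 7 genes reported as targets of cluster miRNAs, 0 passed edgeR's test and 1 stood at an unadjusted p under 0.05. That gene, Bcl6, was higher, beside 7.03% of all genes higher at that level. DESeq2 called it as higher, beside 4.46% of all genes, and limma-voom did not call it. Bcl6, a transcriptional repressor that miR-127 is reported to target, was at 29.5 and 34.9 CPM in natural light and at 48.6, 57.4 and 46.4 CPM under blue light, with no overlap (log2 fold change 0.66, edgeR adjusted p = 0.0759). Limk1 and Pum2, reported targets of miR-134 in neurons, had log2 fold changes of 0.15 and -0.15.

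The 2 natural libraries differed from each other across the cluster. Natural A exceeded natural B in 54 of the 70 tested members (77.1%), with a median log2 ratio of 0.25, against 388 of 641 for all tested miRNAs (60.5%), with a median of 0.092. It did so in Meg3, Rian and Mirg as well, against 49.8% of all genes. Neural miRNAs, a list of 27 with 21 tested and none at 0 in every library, were higher in natural A for 19 of 21 and summed to 82685 and 73346 CPM in natural light and 69634 to 75453 CPM under blue light. Ganglion cell genes were higher in natural A for 14 of 15 and had a sum under blue light, 481 to 498 CPM, that lay between those of natural A and natural B. Muscle markers went the other way. The 20 skeletal muscle genes, none at 0, were all lower in natural A and summed to 2359 and 4802 CPM in natural light and to 5020, 2301 and 2245 CPM under blue light. Muscle miRNAs were higher in natural A for 2 of 9 and summed to 11309 and 18109 CPM in natural light and 16074 to 22141 CPM under blue light, with 4 of the 13 listed at 0 in every library. Other lists leaned as well. Natural A was higher for 15 of 20 rod genes, 17 of 21 imprinted genes of other domains and 10 of 16 lens genes. It was higher for only 3 of 16 lens and epithelium miRNAs, 4 of 19 fibroblast and smooth muscle miRNAs and 0 of 7 haematopoietic miRNAs. The part of neural, muscle or other tissue in the cluster's values was not tested.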

How the data were processed

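The series holds 5 miRNA and 5 mRNA libraries, whose columns carry the sample titles, and groups follow the source name. The authors deposited raw counts for each mature miRNA. The aligner and counter behind them are not given in the sources used here. For mRNA the authors deposited estimated counts for each gene symbol, already whole numbers. Total RNA was extracted with Trizol and rRNA was removed with biotin probes, per the labels' protocols. The submitters' processing notes name mm10, bcl2fastq 2.0, HISAT2, StringTie, DESeq2 and limma without roles, and strand was not stated.

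Each table was fitted whole with edgeR 4.0.16 (TMM, filterByExpr, quasi-likelihood test) in R 4.3.3, with Benjamini-Hochberg adjustment over all features tested and a threshold of 0.05. CPM are TMM-scaled, except the floors for members with 0 counts, and each SE was derived from the fold change and its F statistic. Intervals are from limma 3.58.1 (voom). The scripts were tested on simulated data. Alternatives were other scalings and filters, DESeq2 1.42.0, limma-voom, leaving out each library, and a replicate block. Locus genes were added to these after their values were seen. The members and lists were chosen with earlier results of these data known. Named were Meg3, Rian, Mirg, Dlk1, Rtl1 and Dio3, the 12 most abundant members, the 6 of smallest p in each direction, the other arm of a named hairpin where described, the highest and lowest 5p shares, and up to 3 genes of smallest p per list. miR-376b-5p, miR-376c-5p, miR-362-3p, miR-344d-3p, miR-379-3p, miR-411-3p, miR-410-5p, miR-410-3p, miR-134 and the untested arms are named for their sequence, role or count of 0. Mef2c and AF357359 fall outside the rule.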

Additional observations from a re-analysis of the deposited data

How the results depend on the processing

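The count of members passing stayed at 0 in all alternatives except that with no filter on low counts, where it was 1 (miR-494-3p). That alternative tested 80 members and 1313 miRNAs. With library totals only, the median log2 fold change of the members was 0.073 and the log2 ratio of the summed level 0.040, and miR-127-3p (0.11), miR-381-3p (0.033), miR-379-5p (0.071), miR-411-5p (0.11), miR-541-5p (0.024) and miR-300-3p (0.12) turned positive. With no filter on low counts miR-127-3p (0.022), miR-411-5p (0.020) and miR-300-3p (0.028) did so. Leaving out 1 library at a time gave log2 ranges of -0.27 to 0.070 for the summed level, -0.26 to 0.17 for Meg3 and -0.47 to 0.44 for Mirg. For single members the ranges were -0.18 to 0.12 for miR-127-3p, -0.39 to 0.22 for miR-381-3p, -0.40 to 0.016 for miR-434-5p, -0.20 to 0.056 for miR-379-5p, -0.090 to 0.018 for miR-411-5p, -0.19 to 0.15 for miR-300-3p and -0.041 to 0.20 for miR-136-3p. For Dlk1 the range was -0.22 to 0.85 and for Rtl1 -0.37 to 0.35. The upper ends, except that of Dlk1, came without natural A. Meg3 was also positive without blue A, at 0.0045. The labels do not say that letters pair samples, and the natural group has no C. With a replicate block, 0 members passed and 3 stood at an unadjusted p under 0.05, with no share of all miRNAs to set beside the 3. The members' median was -0.095, against 0.022 for all miRNAs, and miR-381-3p (0.0060) and Dlk1 (-0.15) changed sign. The block lowered the number of genes passing from 421 to 0 and moved that of miRNAs from 4 to 9. The correlation across features of the A-minus-B difference in the 2 groups was -0.084 for miRNAs and -0.19 for mRNAs. The TMM factors of the miRNA libraries were 0.936 and 0.939 in natural light and 1.04, 1.03 and 1.07 under blue light. Using library totals only thus shifted all miRNAs in the same direction, and their median moved from 0.014 to 0.17. The cause of the other changes of sign was not tested. Begain lost its call with library totals only (adjusted p = 0.0601) and with the block (0.332). Over all alternatives 0 to 32 miRNAs and 0 to 1729 genes passed, the latter with DESeq2.

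Where a natural library was left out, the lone one was assumed to vary like the blue ones. With 2 natural libraries, 1 library decides the sign of most small differences. The median half-width of the 95% interval of a member was 0.51 on the log2 scale, and 22 of 70 intervals reached past 1 log2 unit. Changes smaller than this half-width could thus go undetected for many members at this depth and number of samples. The intervals are not adjusted for the number of miRNAs tested. After adjustment, even log2 fold changes of -0.72 (miR-543-3p) and 0.97 (miR-494-3p) did not pass. The floors given for single libraries cover counting error only, while the 95% intervals come from a fit to all libraries of the assay.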

Other observations

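Imprinted genes of other domains were listed beside the cluster. Of 21 such genes, 0 passed edgeR's test, beside 2.22% of all genes. At an unadjusted p under 0.05 stood 5, 2 higher and 3 lower, beside 16.3% of all genes (7.03% higher and 9.27% lower). DESeq2, which called 9.11% of all genes, called 2 as higher (Inpp5f and Plagl1) and 2 as lower (Grb10 and Igf2), and limma-voom called 0. Inpp5f, an inositol phosphatase gene with an imprinted isoform, was at 57.7 and 54.6 CPM in natural light and at 75.0, 77.6 and 69.9 CPM under blue light (log2 fold change 0.40, edgeR adjusted p = 0.0785). Grb10, an adaptor that restrains insulin signalling, was at 88.6 and 87 CPM in natural light and at 72.3, 73.2 and 70.0 CPM under blue light (log2 fold change -0.29, edgeR adjusted p = 0.112). Igf2, the paternally expressed growth factor, was at 80.9 and 56.4 CPM in natural light and at 47.5, 37.4 and 49.0 CPM under blue light (log2 fold change -0.62, edgeR adjusted p = 0.189). In these 3 genes the groups did not overlap. The median of the 21 was -0.035.

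A further 32 miRNAs of the domain lie outside the naming rule. Of these 12 were tested, 9 were at 0 in every library, and 0 passed with edgeR, DESeq2 or limma-voom. With edgeR 2 stood as higher at an unadjusted p under 0.05, beside 5.3% of all tested miRNAs higher. The smallest p belonged to miR-299a-3p, at 49.4 and 42.2 CPM in natural light and at 60.6, 60.3 and 78.2 CPM under blue light, without overlap (log2 fold change 0.54, edgeR adjusted p = 0.340). miR-299b-3p gave nearly the same values and miR-299a-5p and miR-299b-5p gave equal values in all 5 libraries, so these names are not separate measurements. Of 7 snoRNAs of the Rian stretch listed in the mRNA table, 6 were tested and none passed. The most abundant by mean level, AF357359, had 117 and 64 estimated counts in natural light and 97, 90 and 100 under blue light.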
